A study of Mus musculus with 7 samples.

Results

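The Schlafen (Slfn) and Ifi200 genes are mouse gene families that sit in clusters on chromosomes 11 and 1, and 10 of them were followed here by their symbols among the 55367 genes of the count file. The Schlafen members were Slfn1, Slfn2, Slfn3, Slfn5, Slfn8, and Slfn9, and the Ifi200 members were Ifi203, Ifi204, Mndal, and Aim2. Their RNA was measured in CD8+ T cells sorted from spleens of Foxp3 YFP/cre mice, in which a YFP-Cre fusion is made in regulatory T cells, after culture with small extracellular vesicles (sEV) for 48 hours, at 100 µg/mL per the labels. The study's methods instead speak of the amount natural to each kind of spleen, so an equal dose in both groups is not certain. A fold between the groups may include a difference in dose. The methods also describe culture of CD8+ T cells on anti-CD3 with CD28 antibody and IL2, without naming these libraries. The cells may thus have been stimulated rather than resting. LME-sEVs came from spleens of leukemic Eμ-TCL1 mice, whose B cells carry a human TCL1 transgene and develop a disease like chronic lymphocytic leukemia, and HCME-sEVs came from spleens of healthy mice. The comparison asks how vesicles of the leukemic spleen change these genes relative to vesicles of the healthy spleen, with 3 LME-sEV and 4 HCME-sEV libraries and no culture without vesicles. These group sizes follow the sample labels, and a legend of the study has them the other way round. The labels give neither the age of the mice nor whether libraries came from separate animals, so p-values measure the spread between these libraries, which may be technical.

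Both families are named for, or contain, genes induced by interferons, cytokines of the antiviral response. Schlafen proteins restrain growth and translation: Slfn1 was named as an inhibitor of thymocyte growth, Slfn2 keeps resting T cells quiescent, and the long forms Slfn5, Slfn8, and Slfn9 carry a helicase-like part. Ifi200 proteins (also called PYHIN proteins) pair a pyrin domain with a HIN domain that binds DNA. Aim2 uses them to sense DNA in the cytosol and to assemble an inflammasome with Pycard and caspase-1, Ifi204 is a DNA sensor that acts through Sting1, and Ifi203 and Mndal are mainly nuclear.

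The Schlafen members lay between chr11:82951349 and chr11:83215154 on GRCm38, and the Ifi200 members between chr1:173350879 and chr1:173942672. Slfn2 lies at chr11:83065112-83070678 and Slfn1 at chr11:83116849-83122670 on the plus strand, as do Slfn3 at chr11:83191330-83215154 and Slfn5 at chr11:82951349-82964840. Slfn9 spans chr11:82978390-82991830 and Slfn8 chr11:83002158-83020810 on the minus strand. Ifi204 spans chr1:173747293-173766943, Mndal chr1:173849126-173942491, and Ifi203 chr1:173920407-173942672, each on the minus strand, and Aim2 spans chr1:173350879-173466040 on the plus strand. Ifi203 and Mndal share exons on the same strand, and the last bases of Slfn8 and Slfn9 transcripts are 98.0% identical over 296 bases. Counts of these pairs can be split between the partners, or lost where a read matches both, and are uncertain one by one.

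One element through which interferons act on promoters is the interferon-stimulated response element (ISRE), searched here as GAAA, any 2 bases, and GAAA again. The search took both strands, from 250 bases before to 50 bases after each start site in RefSeq (GRCm38.p6). These letters occurred in 3.44% of all 32851 promoters and at 3.99% of 27025 genes. Of the 9 members with a promoter in the table, 5 held them, namely Slfn5, Slfn8, Slfn9, Ifi203, and Mndal, whereas Slfn1, Slfn2, Slfn3, and Aim2 did not, and Ifi204 had no entry. Of 12 further genes of the families, 7 held them. A second interferon element, GAS, was searched as TTC, any 3 bases, and GAA. No member promoter held it, and of the further genes Ifi202b did, beside 9.55% of all genes. A match is a description of letters, not of bound factor.

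The 100 bases just before the start site (for genes with several, one whose window holds a match) are shown for the members and neighbours whose RNA the results turn on, with the ISRE letters of either strand in capitals. Slfn2 is shown because it was the member that passed the test, Slfn9 and Slfn8 because this pair is alike in both promoter and 3′ end, and Ifi211, Ifi206, and Ifi214 because they carry the letters and moved in opposite directions.
Slfn2, chr11:83065012-83065111, plus strand: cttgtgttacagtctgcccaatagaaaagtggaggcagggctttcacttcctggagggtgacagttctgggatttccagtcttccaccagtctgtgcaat
Slfn9, chr11:82991831-82991930, minus strand: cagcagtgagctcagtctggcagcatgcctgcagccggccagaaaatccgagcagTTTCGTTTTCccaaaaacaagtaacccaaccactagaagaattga
Slfn8, chr11:83020811-83020910, minus strand: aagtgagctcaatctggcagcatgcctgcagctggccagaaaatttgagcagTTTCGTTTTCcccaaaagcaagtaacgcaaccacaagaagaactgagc
Ifi203, chr1:173942493-173942592, minus strand: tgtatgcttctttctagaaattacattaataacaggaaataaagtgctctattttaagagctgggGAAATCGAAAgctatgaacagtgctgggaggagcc
Mndal, chr1:173879959-173880058, minus strand: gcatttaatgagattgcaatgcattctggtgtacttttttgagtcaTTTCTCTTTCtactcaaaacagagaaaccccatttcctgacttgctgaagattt
Ifi211, chr1:173913047-173913146, minus strand: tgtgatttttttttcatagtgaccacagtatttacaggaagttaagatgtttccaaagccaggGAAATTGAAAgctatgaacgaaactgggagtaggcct
Ifi206, chr1:173491319-173491418, minus strand: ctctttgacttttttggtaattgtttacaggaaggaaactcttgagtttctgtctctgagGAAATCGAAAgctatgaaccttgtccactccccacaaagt
Ifi214, chr1:173535958-173536057, minus strand: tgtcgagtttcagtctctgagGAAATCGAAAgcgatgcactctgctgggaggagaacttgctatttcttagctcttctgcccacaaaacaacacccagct
The match began 45 bases before the start of Slfn9 and 48 bases before that of Slfn8. It lay 35, 37, and 40 bases before the starts of Ifi203, Ifi211, and Ifi206. These starts are those of RefSeq, whereas the gene spans given above are those of GENCODE. The windows of Mndal and Ifi203 therefore lie inside the spans of these genes.

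Libraries held between 3689831 and 5030522 counts, each a captured 3′ end of a molecule, and levels are given as CPM, in which counts are divided by library totals and TMM factors. Gene length does not enter such a level, so levels of different genes can be set side by side as molecules captured. The smallest level taken as shown, 3 counts, came to between 0.582 and 0.807 CPM, which covers counting error only. Counts of libraries of the same group differed by more than sampling noise, since the chi-square statistic over its degrees of freedom ran from 2.12 to 6.13, and no library was a copy of another. The 8 CD8+ T-cell markers, which include Cd8a and Cd8b1, summed to 2229 to 2428 CPM with HCME-sEVs and 2499 to 2812 CPM with LME-sEVs, whereas Cd4 and Foxp3 did not exceed 3 counts in any library. The 10 markers of B cells summed to 245.5 to 289 CPM with HCME-sEVs and 328 to 356 CPM with LME-sEVs, most of it Ighm, with means of 241 and 314 CPM and a log2 fold change of 0.38 (FDR 0.00431, edgeR). Cd74 was also higher, at 0.54 (FDR 0.0400, edgeR), whereas Cd79a, Cd22, and Blk stayed at 3 counts or fewer. The 12 myeloid markers summed to 8.91 to 12.8 and 12.99 to 17.5 CPM, with Fcgr1 at 0 and Adgre1, Cd14, and Clec4d at 3 counts or fewer. Sums of 9 basophil, mast cell, and eosinophil markers ran from 8.91 to 37.5 CPM with HCME-sEVs and from 32.6 to 51.5 CPM with LME-sEVs, those of 7 dendritic cell markers from 51.2 to 69.1 and from 38.2 to 46.7 CPM, and those of 4 NK-cell markers from 17.9 to 30.4 and from 15.9 to 29.3 CPM. The dendritic cell sum was mostly the interferon-induced Bst2. The sum of the other 6 went the opposite way, with 7.22 to 9.64 CPM with HCME-sEVs and 9.69 to 12.6 CPM with LME-sEVs. It was mostly Zbtb46, with means of 7.11 and 9.67 CPM. Zbtb46, Itgax, Siglech, and Xcr1 had higher means with LME-sEVs, and Flt3 and Clec9a lower ones. The groups did not overlap for the CD8+ T-cell, B-cell, myeloid, and dendritic cell sums, and the part of other cells in the results was not tested. In bulk RNA, fewer cells of a type and less RNA per cell cannot be told apart.

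All 10 members passed the filter of a mean of 5 counts per library, and they covered a wide range of levels. Mndal was the most abundant with a mean of 420.3 CPM over the 7 libraries, followed by Ifi203 with 336.5 CPM and Slfn2 with 185 CPM. Aim2 (68.4 CPM), Slfn1 (46.7 CPM), and Slfn8 (30.7 CPM) came next, then Slfn9 (12.5 CPM), Slfn3 (5.87 CPM), Slfn5 (5.26 CPM), and Ifi204 (1.59 CPM). Ranges over libraries overlapped between Mndal and Ifi203, Aim2 and Slfn1, Slfn1 and Slfn8, Slfn3 and Slfn5, and Slfn5 and Ifi204, although Mndal exceeded Ifi203 within each of the 7 libraries. Slfn2 made up 64.7% of the summed Schlafen level, and Ifi203 and Mndal together 91.5% of the Ifi200 level.

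**Figure D1:**
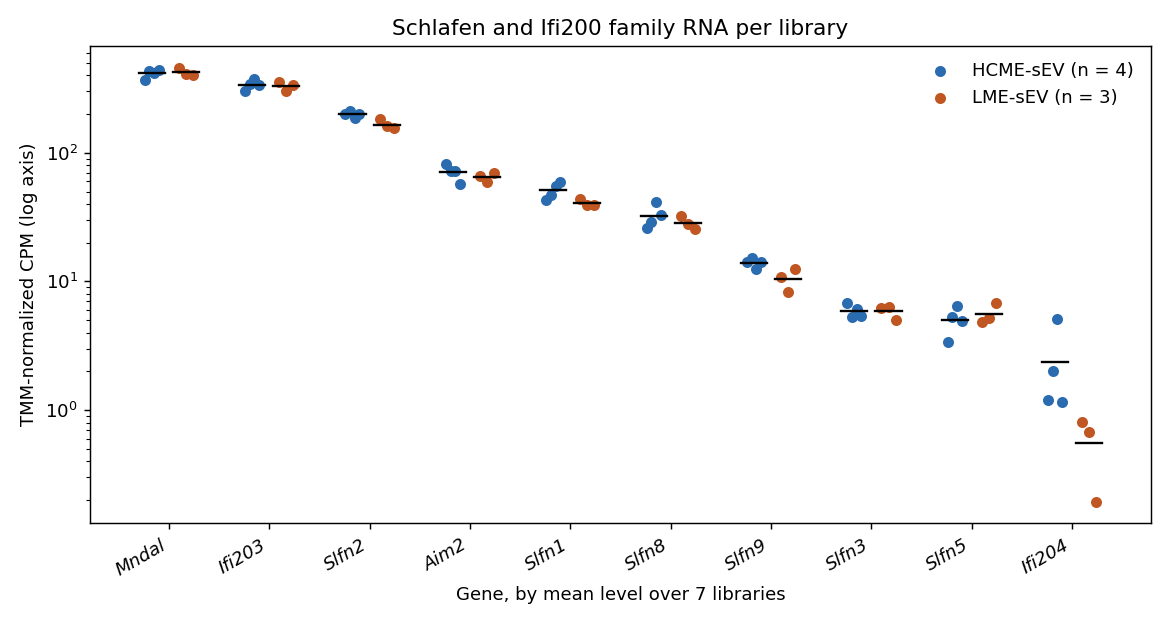
TMM-normalized CPM (log axis) of each member in every library, ordered by mean level, with HCME-sEV libraries in blue, LME-sEV libraries in orange, and a bar at each group mean. Slfn2, Slfn9, and Ifi204 show LME-sEV libraries below every HCME-sEV library, whereas the groups overlap for the other 7 genes.

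Slfn2 RNA was modestly lower after culture with LME-sEVs. It stood at 201, 212, 186, and 199.7 CPM in HCME-sEV libraries 1 to 4, and at 182, 161, and 155 CPM in LME-sEV libraries 1 to 3. Each LME-sEV library lay below each HCME-sEV library, although LME-sEV 1 came within a few CPM of HCME-sEV 3. Means were 199.8 ± 10.8 CPM (SD, n = 4) and 166 ± 14.2 CPM (SD, n = 3), a log2 fold change of -0.27 (SE 0.0820, 95% interval -0.44 to -0.10), with an FDR of 0.0436 in edgeR's quasi-likelihood test, adjusted over 12623 genes by Benjamini-Hochberg. The exact permutation test gave p = 0.0286 (two-sided, 35 splits), the smallest this design allows. The call was near the threshold: by the same edgeR test the FDR was 0.0585, 0.140, and 0.0750 without HCME-sEV libraries 1, 2, and 4, 0.173 and 0.225 without LME-sEV libraries 2 and 3, 0.0881 with scaling by library size alone, and 0.0626 with no filter on low counts.

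Slfn2 was the 1 of 10 members past an FDR of 0.05, whereas 8.96% of all genes tested passed, 3.75% as higher and 5.21% as lower with LME-sEVs. A share of 1 in 10 is near that background. No member was a differentially expressed gene (DEG, an FDR under 0.05 and a log2 fold change beyond 1) by edgeR's quasi-likelihood test or limma-voom, and 1.28% of all genes were by edgeR. DESeq2 made none of the other 9 members a DEG and gave Ifi204 no adjusted p. Ifi204 became a DEG in edgeR with no filter on low counts, with the replicate number as a block, and without HCME-sEV 1 or HCME-sEV 4, as detailed with its values. At an unadjusted p under 0.05, 4 members were lower (Slfn1, Slfn2, Slfn9, and Ifi204) and 0 were higher, beside 12.3% of all genes lower and 10.4% higher. Groups did not overlap for 3 members, each lower with LME-sEVs, beside 20.3% of all genes, of which 10.8% were lower and 9.49% higher. The log2 fold change was below 0 for 8 of 10 members, beside 6127 of 12623 genes tested. Slfn3 and Ifi203, at -0.02 and -0.03, are among the 8 and changed sign with scaling by library size alone. The median was -0.16, beside 0.01 over all genes.

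Among the other Schlafen genes, Slfn9 and Slfn1 had the lowest estimates, and neither passed the test. Slfn9, a long form, measured 14.2, 15.2, 12.5, and 14.2 CPM with HCME-sEVs and 10.8, 8.32, and 12.4 CPM with LME-sEVs. Its groups just failed to touch, at 12.54 against 12.41 CPM, and the log2 fold change was -0.41 (SE 0.177, 95% interval -0.78 to -0.04; FDR 0.162 by edgeR's quasi-likelihood test). Its neighbour Slfn8 measured 26.3, 28.9, 41.3, and 33.1 CPM with HCME-sEVs and 32.0, 27.9, and 25.4 CPM with LME-sEVs. The Slfn8 groups overlapped, with a log2 fold change of -0.19 (SE 0.145; FDR 0.469, edgeR). A sum of both genes removes a split between their near-identical ends but does not restore reads lost for matching both. Its log2 fold change was -0.26 (SE 0.115, 95% interval -0.50 to -0.02, FDR 0.183, edgeR).

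Slfn1 measured 42.6, 47.1, 55.2, and 59.4 CPM with HCME-sEVs and 43.9, 39.3, and 39.2 CPM with LME-sEVs. HCME-sEV 1 lay within the LME-sEV range and below LME-sEV 1. The means were 51.1 ± 7.58 CPM (SD, n = 4) and 40.8 ± 2.66 CPM (SD, n = 3), with a log2 fold change of -0.33 (SE 0.118, 95% interval -0.57 to -0.08; FDR 0.0891 by edgeR's quasi-likelihood test). Without HCME-sEV 1 it was -0.41 with an FDR of 0.0272 by edgeR, so the call turned on this library.

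Slfn3, at 21 to 28 counts per library, and Slfn5, at 14 to 35, had wide estimates. Slfn3 ranged from 5.32 to 6.75 CPM with HCME-sEVs and from 5.04 to 6.29 CPM with LME-sEVs, and its log2 fold change of -0.02 had a 95% interval from -0.52 to 0.48 and turned to 0.02 with library size alone. Slfn5 measured 3.37, 5.32, 6.40, and 4.89 CPM with HCME-sEVs and 4.84, 5.17, and 6.79 CPM with LME-sEVs. Its log2 fold change was 0.19 (95% interval -0.39 to 0.76, FDR 0.751, edgeR), so its direction was not resolved at this depth. Slfn5 overlaps Slfn5os on the opposite strand, which was at 0 counts in every library.

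Summed over the 6 Schlafen members, the level was 294, 314, 307.5, and 317 CPM with HCME-sEVs and 279.5, 248, and 243.5 CPM with LME-sEVs. Each LME-sEV sum lay below each HCME-sEV sum. Since Slfn2 held most of this level, the sum chiefly repeated its values. The median log2 fold change over the 6 genes was -0.23.

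None of the 4 Ifi200 members passed the test in edgeR's quasi-likelihood fit, DESeq2, or limma-voom, although DESeq2 gave Ifi204 no adjusted p. At an unadjusted p under 0.05, 1 of the 4 was lower, Ifi204, beside 12.3% of all genes. Their median log2 fold change was -0.08, and the summed level was 754, 847, 871, and 841 CPM with HCME-sEVs and 884, 777, and 814 CPM with LME-sEVs, with overlapping groups. The most abundant members were the most tightly bounded. Mndal measured 370.5, 429, 420.1, and 443 CPM with HCME-sEVs and 459.8, 413, and 406 CPM with LME-sEVs, a log2 fold change of 0.03 (SE 0.0795, 95% interval -0.13 to 0.20). Ifi203 measured 301, 344, 373, and 339 CPM with HCME-sEVs and 357, 305, and 337 CPM with LME-sEVs, a log2 fold change of -0.03 (SE 0.0834, 95% interval -0.20 to 0.15). For both genes the groups overlapped widely, and the sum of both gave 0.01 (95% interval -0.16 to 0.17). The sign of Ifi203 turned with the scaling, to 0.02 with library size alone, so it carries no direction.

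Aim2, the inflammasome sensor, measured 81.7, 72.0, 72.8, and 57.7 CPM with HCME-sEVs and 65.9, 58.9, and 69.99 CPM with LME-sEVs. The groups overlapped, since HCME-sEV 4 was the lowest of the 7 libraries. The log2 fold change was -0.13 (SE 0.110, 95% interval -0.36 to 0.10; FDR 0.538 by edgeR's quasi-likelihood test).

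Ifi204 was close to the floor of detection and differed between the groups by the widest fold of the 10 members. It had 5, 8, 19, and 5 counts in HCME-sEV libraries 1 to 4 and 3, 3, and 1 counts in LME-sEV libraries 1 to 3, which is 1.21, 2.03, 5.07, and 1.16 CPM against 0.807, 0.674, and 0.194 CPM. The groups did not overlap, but HCME-sEV 3 alone supplied more counts than the other 3 HCME-sEV libraries together. Pooled, 37 counts stood against 7, a ratio of HCME-sEV to LME-sEV of 4.36 (exact 95% interval 1.92 to 11.6, counting error only), and without HCME-sEV 3 the ratio was 2.77 (1.10 to 7.83). The fitted log2 fold change was -2.07 (SE 0.662, 95% interval -3.45 to -0.69), with an FDR of 0.0549 by edgeR's quasi-likelihood test and p = 0.114 in the exact permutation test. Without HCME-sEV 3 the log2 fold change was -1.41 with an FDR of 0.177 by edgeR, whereas with no filter on low counts the FDR was 0.0214, and without HCME-sEV libraries 1 and 4 in turn it was 0.0318 and 0.0473. In these fits its log2 fold change lay beyond -1 (-2.06, -2.29, and -2.30), and with the replicate block it was -2.28 with an FDR of 0.0181 by edgeR. Myeloid cells are known to express Ifi204, and their part in these values was not tested. The 12 myeloid markers summed to 8.91, 9.38, 12.8, and 9.545 CPM in HCME-sEV libraries 1 to 4. With LME-sEVs their sums were 17.5, 15.3, and 12.99 CPM in libraries 1 to 3. Within the HCME-sEV group, HCME-sEV 3 was highest for both this sum and Ifi204. Ly86 alone gave 7.20 CPM of the sum in HCME-sEV 3, beside 2.65, 2.28, and 4.42 CPM in HCME-sEV libraries 1, 2, and 4. Without Ly86, HCME-sEV 3 was not the highest of its group in the myeloid sum.

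Further genes of the Ifi200 cluster passed the test. Of 10 further Ifi200 rows in the file, 6 passed the filter, and of these 1 was higher and 2 were lower with LME-sEVs at an FDR under 0.05, again beside 3.75% and 5.21% of all genes. Ifi202b was at 0 counts in every library, Ifi207 and Ifi203-ps had at most 1 count, and Ifi205 had 0 counts with HCME-sEVs and 2, 0, and 3 with LME-sEVs. Of the further Schlafen rows, Slfn4 and Slfnl1 were at 0, Slfn14 had at most 1 count, and Slfn10-ps, a pseudogene, had a log2 fold change of 0.17 (SE 0.139; FDR 0.505, edgeR).

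Ifi211, at chr1:173896345-173913046 on the minus strand within the span annotated for Mndal, rose with LME-sEVs. It measured 15.4, 18.5, 23.7, and 22.8 CPM with HCME-sEVs and 34.2, 32.6, and 28.9 CPM with LME-sEVs. Each LME-sEV library was above each HCME-sEV library by at least several CPM. The means of 20.1 ± 3.88 CPM (SD, n = 4) and 31.9 ± 2.71 CPM (SD, n = 3) gave a log2 fold change of 0.66 (SE 0.144, 95% interval 0.36 to 0.96), or 1.58-fold, with an FDR of 0.00664 by edgeR's quasi-likelihood test and p = 0.0286 in the exact permutation test. It passed in each of the 7 fits that left out 1 library (0.55 to 0.74) and in each of 8 other settings. Its transcript end is 99.7% identical to that of Ifi205 over 292 bases, and the sum of both genes gave 0.68 with an FDR of 0.00566 by edgeR. Since Ifi205 had at most 3 counts, this sum could hardly differ from Ifi211 alone. The end of Ifi211 is also 92.8% identical over 292 bases to that of the far more abundant Mndal. A sum of Ifi211 with Mndal was not made.

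Ifi214 and Ifi206, from the other end of the cluster, were lower with LME-sEVs. Ifi214, at chr1:173519717-173535957, measured 15.2, 25.1, 28.3, and 14.7 CPM with HCME-sEVs and 14.5, 10.3, and 11.4 CPM with LME-sEVs. The groups did not overlap but nearly met, at 14.67 against 14.53 CPM, and the log2 fold change was -0.78 (SE 0.217; FDR 0.0274 by edgeR's quasi-likelihood test). Ifi206, at chr1:173468485-173491041, measured 43.1, 57.8, 71.5, and 60.1 CPM with HCME-sEVs and 53.0, 30.1, and 39.4 CPM with LME-sEVs, so LME-sEV 1 lay within the HCME-sEV range. Its log2 fold change was -0.52 (SE 0.161; FDR 0.0476, edgeR). Ifi206 missed the threshold with library size alone (FDR 0.0797, edgeR) and with filterByExpr (0.0533), and Ifi214 with limma-voom (0.0501). Of the 7 edgeR fits without 1 library, Ifi214 passed in 3 and Ifi206 in 2. The FDR of Ifi214 was 0.0988 and 0.0669 without HCME-sEV libraries 2 and 3 and 0.150 and 0.117 without LME-sEV libraries 2 and 3 (edgeR). That of Ifi206 was 0.0971, 0.104, and 0.112 without HCME-sEV libraries 2, 3, and 4 and 0.286 and 0.164 without LME-sEV libraries 2 and 3 (edgeR).

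The 3′ ends of Ifi214 and Ifi209 are 98.3% identical over 300 bases. Ifi209 alone had a log2 fold change of -0.41 (SE 0.129; FDR 0.0522, edgeR) and the sum of the pair -0.48 (FDR 0.0252, edgeR). Ifi208 was low in every library, at 7.38 ± 0.613 CPM (SD, n = 4) and 4.87 ± 0.525 CPM (SD, n = 3), with a log2 fold change of -0.59 (SE 0.234; FDR 0.125, edgeR), and Ifi213 gave -0.14 (SE 0.198; FDR 0.727, edgeR).

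**Figure D2:**
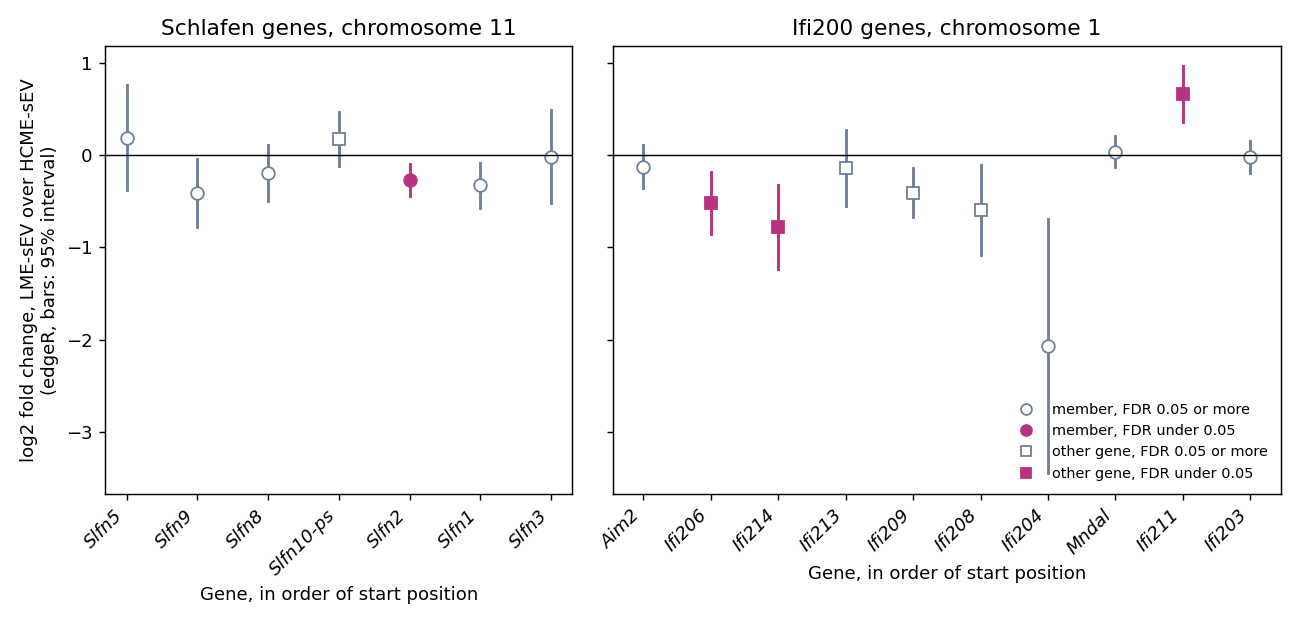
Log2 fold change of LME-sEV over HCME-sEV (edgeR, bars 95% interval) for the tested Schlafen genes of chromosome 11 and Ifi200 genes of chromosome 1, in order of start position, with members as circles, other genes as squares, and genes with an FDR under 0.05 filled. Slfn2, Ifi206, and Ifi214 lie below 0 and Ifi211 above it at 0.66, next to Mndal and Ifi203 at 0.03 and -0.03.

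Genes with the ISRE letters had fold changes in both directions. Of the 10 tested family genes that held them, 1 was higher and 2 were lower at an FDR under 0.05 in edgeR's quasi-likelihood test, with a median log2 fold change of -0.17 and a range from -0.78 to 0.66. Of the 5 without them, Slfn2 was lower and the median was -0.27, with a range from -0.41 to -0.02. Over all genes tested, 3.75% passed as higher and 5.21% as lower, and so few genes do not set either set apart. The lower calls with the letters, Ifi206 and Ifi214, passed in 2 and 3 of the 7 edgeR fits without 1 library. Ifi211, Ifi206, and Ifi214 carry the letters in the same orientation in the sequences shown above, and the 10 bases in capitals are identical in Ifi203, Ifi206, and Ifi214.

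Across the cluster, the same libraries stood repeatedly at one end of their group. HCME-sEV 3 was the highest HCME-sEV library in 6 of 6 tested Ifi200 genes outside the members and in 4 of 10 members. HCME-sEV 1 was the lowest of its group in 4 of 6 and 5 of 10. The same count over all tested genes was not made, so this order is not shown to be particular to the cluster. HCME-sEV 1 and HCME-sEV 3 also differed most of all same-group pairs over the tested genes, with a chi-square over its degrees of freedom of 6.13. The summed level of 37 antiviral interferon-stimulated genes followed a similar order, with 1421, 1681, 2111, and 1723 CPM in HCME-sEV libraries 1 to 4 and 1582, 1471, and 1395 CPM in LME-sEV libraries 1 to 3. That sum was also highest in HCME-sEV 3 and, within its group, lowest in HCME-sEV 1, and the groups overlapped. By contrast, the sum of 18 GBP and IRG genes, interferon-induced GTPases, stayed between 1965 and 2031 CPM in the HCME-sEV libraries and between 1521 and 1674 CPM in the LME-sEV libraries.

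**Figure D3:**
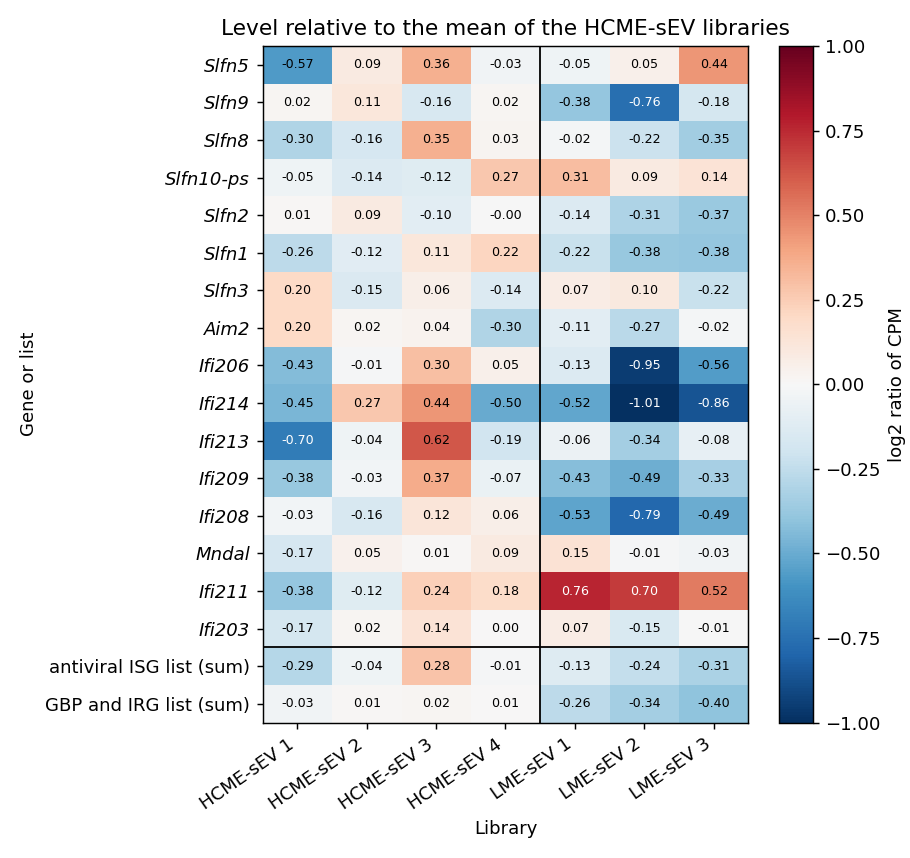
Log2 ratio of the CPM in each library to the mean of the HCME-sEV libraries, for 16 tested Schlafen and Ifi200 genes (all but Ifi204) in order of position and for the sums of 2 interferon-induced lists (blue lower, red higher, values printed). HCME-sEV 3 is red and HCME-sEV 1 blue for most Ifi200 genes, as for the antiviral list at 0.28 and -0.29, and Ifi211 is red in each LME-sEV library (0.52 to 0.76).

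The genes that carry the interferon signal itself went in both directions. Of 17 receptors, kinases, factors, and inhibitors, 4 passed an FDR of 0.05 by edgeR's quasi-likelihood test, 2 in each direction. Over all genes tested, 3.75% passed as higher and 5.21% as lower. The median log2 fold change of the 17 genes was 0.06. Ifngr1, a chain of the interferon-gamma receptor, was higher with LME-sEVs, with means of 314 ± 41.5 CPM in 4 HCME-sEV libraries (± SD here and below) and 393 ± 21.3 CPM in 3 LME-sEV libraries, a log2 fold change of 0.32. Irf2, a factor that competes with Irf1 on interferon response elements, rose by 0.33 on the log2 scale, from 129 ± 10.4 to 162 ± 12.3 CPM. The feedback inhibitors Socs1 and Usp18 fell by 0.62 and 0.84 on the log2 scale, Socs1 from 89.9 ± 18.6 to 58.1 ± 4.95 CPM and Usp18 from 10.9 ± 2.53 to 6.04 ± 1.18 CPM. Irf1, a factor that activates interferon response genes, gave a log2 fold change of -0.05 (FDR 0.768, edgeR). Socs1 passed in each of the 7 edgeR fits without 1 library. Without LME-sEV 2 and LME-sEV 3, the edgeR FDR was 0.121 and 0.133 for Ifngr1, 0.0806 and 0.134 for Irf2, and 0.148 and 0.0809 for Usp18. Ifngr1 also missed the threshold without HCME-sEV libraries 2 and 4 (FDR 0.0778 and 0.0711), Irf2 without HCME-sEV 2 (0.0537), and Usp18 without HCME-sEV 3 (0.0667).

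Among 13 tested genes that act with or beside Aim2 and Ifi204 in DNA sensing, 2 passed the test, both lower. This stands beside 5.21% of all genes that passed as lower, and so few genes do not set the list apart from that share. The median log2 fold change was -0.05. Zbp1, a sensor of Z-form nucleic acids, fell by 0.52 on the log2 scale, from a mean of 45.6 ± 7.26 to 31.6 ± 0.488 CPM (FDR 0.0119 by edgeR's quasi-likelihood test). Sting1, the adaptor downstream of cytosolic DNA sensors, fell by 0.29, from 154 ± 16.8 to 126 ± 5.63 CPM (FDR 0.0472, edgeR). The Sting1 call held in 1 of 7 fits without 1 library, the one without HCME-sEV 3, and the FDR of the other 6 ran from 0.0644 to 0.193, while DESeq2 and limma-voom gave 0.0502 and 0.0523. Zbp1 had an edgeR FDR of 0.0557 and 0.0581 without LME-sEV libraries 2 and 3. The inflammasome partners of Aim2 did not pass, with log2 fold changes of 0.12 for Pycard (FDR 0.488, edgeR) and 0.22 for Casp1 (FDR 0.326, edgeR), and Cgas gave -0.23 (FDR 0.227, edgeR). Il1b, Nlrp3, and Trex1 were below the filter, and Trex1 was at 0 in every library.

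Other interferon-induced families held genes that fell. Of 15 tested GBP and IRG genes, 6 passed as lower by edgeR's quasi-likelihood test (median log2 fold change -0.27). Of 32 tested antiviral genes, 9 passed as lower (median -0.42). Both counts stand beside 5.21% of all genes tested that passed as lower. Of these 9 antiviral calls, 2 (Isg15 and Bst2) remained without LME-sEV 2, 3 without LME-sEV 3, and 5 without HCME-sEV 2 or HCME-sEV 4, and of the 6 GBP and IRG calls 3 (Gbp2, Gbp5, and Iigp1) remained without LME-sEV 3. No test of the difference between these lists and the members was made. Isg15 and Bst2, which act against viruses, fell by 1.54 and 0.77 on the log2 scale.

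Outside the members, 9686 genes had 20 or more counts on average, and among them the 5 whose log2 CPM followed the mean standardized level of the members most closely over the 7 libraries were D030028A08Rik (Pearson r 0.984), Ifit3 (0.976), Rtel1 (0.973), Ifi206 (0.970), and Mettl3 (0.969). These were picked as the highest of many correlations over 7 points that share their libraries. Ifit3, an antiviral gene, was lower with LME-sEVs, with a log2 fold change of -1.04 (FDR 0.0193 by edgeR's quasi-likelihood test; 0.138 and 0.0852 without LME-sEV libraries 2 and 3), and Ifi206 is the neighbour described above.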

How the data were processed

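CD8+ T cells from mouse spleens, treated with HCME-sEVs (4 libraries) or LME-sEVs (3 libraries), underwent 3′ RNA-seq with unique molecular identifiers (UMIs). The deposited values are raw counts per gene, which the authors made, per the labels and methods, with cutadapt 2.10, STAR 2.5.3a on GRCm38, UMI-tools 1.0.0, and featureCounts of Subread 2.0.0. The annotation release and strand setting are not given in the sources used here. UMI collapsing removes PCR copies, and levels rest on the annotated 3′ ends.

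Genes averaging 5 or more counts per library (12623 of 55367) were scaled by TMM and tested with edgeR 4.0.16 (glmQLFit, glmQLFTest; R 4.3.3), LME-sEV against HCME-sEV without covariates. FDRs are Benjamini-Hochberg adjusted p-values over all tested genes. Means ± SD are of CPM. Two-sided exact permutation tests enumerated 35 assignments of the libraries. The fit was first checked on simulated data. Coordinates came from GENCODE vM21, 3′ ends were compared with blast 2.17.0 over the last 300 bases, and promoters came from RefSeq. Members and lists were chosen with earlier results of these data known. Genes were named by rule: the members, tested family genes, listed genes past an FDR of 0.05 plus up to 4 of the most abundant of a list, and the 5 most correlated genes; Casp1, Cgas, Il1b, Nlrp3, and Trex1 were added after their values were seen. Summed pairs were added after seeing the data. Alternatives used DESeq2 1.42.0, limma-voom 3.58.1, other scalings and filters, a replicate block, and leaving out each library.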

Additional observations from a re-analysis of the deposited data

How the results depend on the processing

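The count of members past the threshold moved from 1 (Slfn2) to 0 with scaling by library size only and lay between 0 and 2 when 1 library was left out. Which members passed also changed: with no filter and without HCME-sEV 4 it was Ifi204 alone, and without HCME-sEV 1 it was Slfn1 and Ifi204. Genes past the threshold numbered 1131, and 393 to 1293 without 1 library, fewest without LME-sEV 2. DEG numbered 162, 84 to 181 without 1 library and 97 with the test of DESeq2; the cause was not tested. With the replicate number as a block, 2 members (Slfn2 and Ifi204), 1447 genes, and 177 DEG passed. Same-numbered libraries deviated together only weakly (correlations of 0.0721, 0.155, and 0.0268), and only LME-sEV 2 correlated best with its own number, so the numbers were not taken as pairs.

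Genes with estimates near 0 changed sign: Slfn3 to 0.0248 and Ifi203 to 0.0184 with library size only, Ifi203 to 0.0084 when summed with Mndal, and, without 1 library, Slfn3 between -0.0837 and 0.0844, Ifi203 between -0.0767 and 0.034, Mndal between -0.0164 and 0.0686, and Ifi213 between -0.32 and 0.13. Of the other values of members under alternatives, 122 kept direction and side of the threshold, 5 gained and 7 lost the call (Slfn2). Ifi204 was not kept by filterByExpr, and DESeq2 gave it no adjusted p. Group sizes of 3 and 4 libraries limit every estimate, and Ifi204 had counts of 1 to 19.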
